A study of Mus musculus with 8 samples.

Results

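The genes described here are 10 genes of the NRF2 antioxidant response: the transcription factor gene Nfe2l2 (which encodes NRF2), its inhibitor Keap1, and the target genes Nqo1, Hmox1, Gclc, Gclm, Slc7a11, Gsr, Txnrd1 and Srxn1. Members were all probe sets that the probe annotation pairs with 1 of these symbols and no other, which gave 21 of the 45101 probe sets on each array (10 of the 18193 genes with a probe set of their own). Transcripts of dorsal skin of Balb/c mice were measured on 8 Affymetrix arrays, 1 per sample, in a contact hapten model of atopic dermatitis. In the DNCB+HY209 group (3 arrays) the hapten dinitrochlorobenzene (DNCB) was applied for 15 days and a PEG gel with 5% HY209 was given over the last 7 days. In the DNCB group (3 arrays) the 15 days of DNCB were combined with vehicle over the last 7 days. The sham group (2 arrays) was labelled as having neither DNCB nor HY209 by titles and source names. Its protocol fields repeat the DNCB description, so all comparisons with sham rest on those titles. The mice carried no transgene or deletion that the labels name, and whether each array stands for its own animal is not in the labels. All values are log2 signals, and a difference of 1 is a doubling.

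NRF2 is a basic leucine zipper factor that pairs with small MAF proteins and binds antioxidant response elements near genes for thiol and quinone metabolism. KEAP1 ties NRF2 to a CUL3 ubiquitin ligase, and electrophiles that react with cysteines of KEAP1 let NRF2 accumulate. This control acts on the protein, so the transcript levels of Nfe2l2 and Keap1 do not measure NRF2 activity. DNCB is itself an electrophile that reacts with protein thiols and glutathione, and keratinocytes are a skin cell type in which the pathway has been widely studied.

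The core of the antioxidant response element, TGACNNNGC, was searched on both strands of RefSeq promoter windows of build GRCm38.p6, each 300 bases long and running from 250 bases before to 50 after a gene start. Windows were found for 7 of the 10 genes, 9 windows in all, and 4 genes held the letters in 1 window each. The same letters occur in 12.4% of all 32851 windows and in 14.0% of the 27025 genes, and none of the 4 matches overlapped the AP-1 letters TGANTCA, also searched on both strands. All 4 matches found are shown. In DNCB minus sham the tested probe set of Nfe2l2 lay at 1.29, and those of Srxn1 ran from -0.20 to 0.84. The tested probe sets of Gclm and Txnrd1 lay at 0.48 and -0.25 in that comparison. Those of Nqo1 and Keap1, whose windows held no match, lay at 0.53 and -0.09. None of these was called. The match is in capitals with 10 bases on each side, on the strand of the gene, and where the element runs on the opposite strand its reverse complement is seen.
Nfe2l2 chr2:75704885-75704913 (minus strand): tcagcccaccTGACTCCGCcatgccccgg
Srxn1 chr2:152105542-152105570 (plus strand): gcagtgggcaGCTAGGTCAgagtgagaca
Gclm chr3:122245413-122245441 (plus strand): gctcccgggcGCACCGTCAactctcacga
Txnrd1 chr10:82859104-82859132 (plus strand): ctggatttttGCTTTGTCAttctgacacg
Distances are from the gene start on which each RefSeq window is built, which for Gclm lies inside the span of the gene given further on. The printed match began 240 bases before the start of Nfe2l2, with the element on the strand of the gene. With the element on the opposite strand, the match began at base 29 of Srxn1, 134 bases before that start of Gclm and 92 before 1 of the 3 starts of Txnrd1. These letters were not in the windows of Nqo1, Keap1 and Slc7a11. A match is a description of the sequence, and binding was not measured.

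Over all probe sets, Pearson's r between 2 arrays of the same group was 0.965 to 0.986, and 0.920 to 0.987 for arrays of different groups. The spike-in signal, a mean over bacterial control probe sets whose transcripts are added in fixed amount in the standard protocol, was 9.87 to 10.89 on DNCB+HY209 arrays, 9.25 to 10.83 on DNCB arrays and 10.99 to 11.62 on sham arrays. Both sham arrays thus lay above all others, so spike-in level and group cannot be fully told apart in comparisons with sham. A fit with that level as a covariate can also take up a difference between the groups. The log2 difference between 3' and 5' Gapdh signal, which grows as RNA degrades, was 1.21 to 1.70, 1.07 to 2.88 and 1.49 to 2.16 in the same order of groups. As a check of the tissue, basal keratinocyte markers were high in every sample. Their list means were 9.55 to 10.73 on DNCB+HY209 arrays, 10.10 to 10.72 on DNCB arrays and 10.31 to 10.94 on sham arrays. Differentiated keratinocyte markers averaged 8.98 to 11.31, 9.39 to 11.11 and 8.19 to 10.05 in the same order, lowest on sham array 2. Adipocyte markers averaged 4.53 to 5.40, 4.53 to 6.10 and 6.26 to 7.14. For skeletal muscle markers the list means were 10.84 to 11.57, 10.30 to 11.95 and 9.35 to 11.02. The part of these lists in the member differences was not tested. Hyperproliferative keratinocyte markers averaged 9.83 to 11.70 with DNCB+HY209, 10.96 to 12.30 with DNCB and 5.57 to 6.11 in sham. Of these 7 genes, 6 were called higher in DNCB than in sham and 5 higher in DNCB+HY209 than in sham. Among all genes 1.26% and 0.33% were called in these comparisons, in either direction. In DNCB against sham 1 basal keratinocyte and 1 hair follicle marker were called lower. In that comparison 2 neutrophil, 1 fibroblast, 1 endothelial and 1 skeletal muscle marker were called higher. Hair follicle markers averaged 5.94 to 8.09, 5.18 to 7.04 and 7.13 to 9.09, and neutrophil markers 5.72 to 6.77, 6.43 to 7.65 and 4.32 to 4.40. Only 5 of the 7 neutrophil genes had a probe set of their own. S100a8 and S100a9 are in both the neutrophil and the hyperproliferative keratinocyte list, so these lists are not separate readouts. Fibroblast markers averaged 8.03 to 8.41, 8.60 to 9.77 and 8.29 to 8.94, and endothelial markers 5.33 to 5.87, 5.95 to 6.63 and 4.80 to 5.00. Both of these list means were lower on every DNCB+HY209 array than on any DNCB array, and their part in the differences between these groups was not tested. In bulk skin, fewer cells of a type and less RNA per cell cannot be told apart.

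Of the 21 member probe sets, 12 lay above the median of their array on at least 2 of the 8 arrays and were tested, and 9 lay below this filter. Array medians ran from 4.07 to 4.22. Hmox1 and Slc7a11 had no probe set above the filter, so 8 genes were tested. No member passed the threshold in any of the 3 comparisons, by limma with Benjamini-Hochberg adjustment over all 24675 probe sets tested. For DNCB against sham the count was 0 of 12, against 0.956% of all probe sets, and at an unadjusted p under 0.05 it was 2 of 12, against 15.3% of all. For DNCB+HY209 against DNCB it was 0 of 12 against 0% of all, with 0 of 12 and 1.24% at the unadjusted threshold. For DNCB+HY209 against sham it was 0 of 12 against 0.267% of all, with 0 of 12 and 18.6% unadjusted. Arrays of the groups did not overlap for 3 members higher and 0 lower in DNCB than in sham (21.0% and 12.6% of all probe sets), and for 2 higher and 0 lower in DNCB+HY209 than in sham (26.7% and 14.2%). Between DNCB+HY209 and DNCB all 12 members overlapped, where 2.83% of all probe sets lay higher and 2.04% lower without overlap. The median member difference was 0.16 for DNCB against sham, 0.06 for DNCB+HY209 against DNCB and 0.29 for DNCB+HY209 against sham, beside 0.11, 0.03 and 0.15 for all probe sets.

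**Figure D1:**
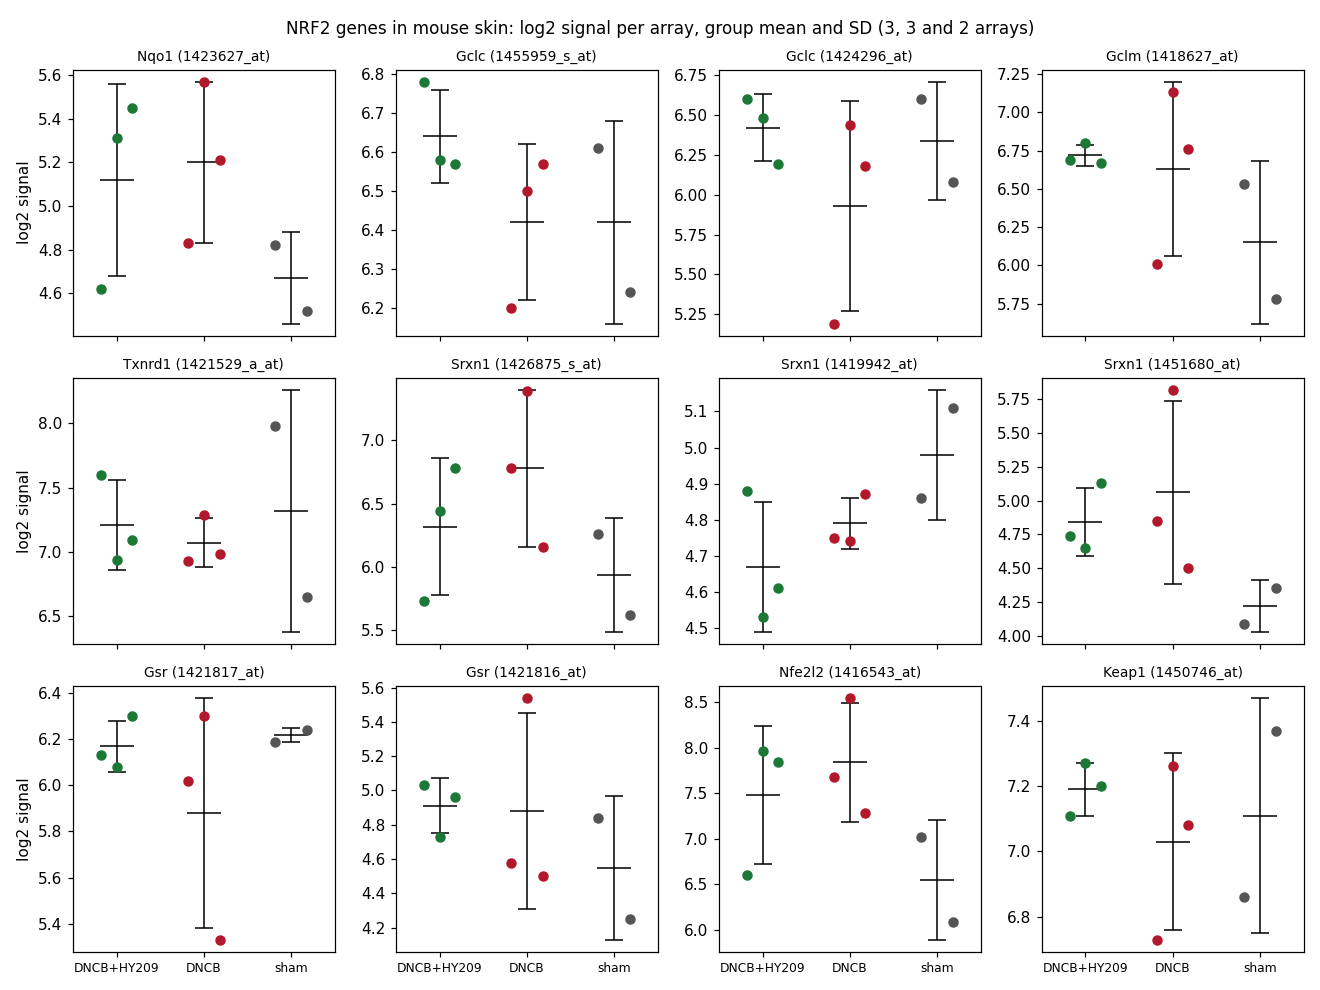
Log2 signal (vertical axis) of the 12 tested member probe sets on each array, 1 panel per probe set, with DNCB+HY209, DNCB and sham from left to right, dots for arrays and bars for mean ± SD. For Nfe2l2 1416543_at, Srxn1 1451680_at and, only just, Nqo1 1423627_at (4.83 against 4.82) every DNCB dot lies above every sham dot. DNCB+HY209 and DNCB dots overlap in all 12 panels.

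Nfe2l2 (chromosome 2, 75675513 to 75704663, GRCm38.p6) had log2 signals by probe set 1416543_at of 6.60, 7.97 and 7.85 on DNCB+HY209 arrays, 7.68, 8.55 and 7.28 on DNCB arrays and 7.02 and 6.08 on sham arrays. All 3 DNCB arrays lay above both sham arrays, while DNCB+HY209 array 1 lay between the sham arrays. The means were 7.48 ± 0.76 (SD, n = 3), 7.84 ± 0.65 (n = 3) and 6.55 ± 0.66 (n = 2). The DNCB minus sham difference was 1.29 (SE 0.51, 95% interval 0.13 to 2.44, unadjusted p = 0.0323 and adjusted p = 0.292 by limma), the largest of the 12 members in that comparison. It was not called.

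The DNCB+HY209 minus DNCB difference of Nfe2l2 was -0.36 (interval -1.39 to 0.67, adjusted p = 0.9999), and that of DNCB+HY209 minus sham was 0.93 (interval -0.22 to 2.08, adjusted p = 0.343). The interval against DNCB holds both a halving and no difference, and with array weights that difference was 0.22. Single arrays moved these values. The DNCB minus sham difference was 0.82 without sham array 2, 1.76 without sham array 1 and 0.93 without DNCB array 2, and the DNCB+HY209 minus sham difference was 0.46 without sham array 2 and 1.40 without sham array 1. The spike-in level moved with it: with that level as a covariate DNCB minus sham was 0.30 (adjusted p = 0.910) and DNCB+HY209 minus sham was -0.08 (adjusted p = 0.969). Since both sham arrays had higher spike-in signals than all others, this covariate cannot be fully told apart from the sham contrast. The part of such differences between arrays in the result was not tested. A second probe set, 1457117_at, lay below the filter, with 3.73, 3.57 and 4.29 on DNCB+HY209 arrays, 3.41, 3.82 and 3.42 on DNCB arrays and 2.93 and 3.05 on sham arrays. Its sham values were also the lowest, at signals under the array medians where a difference is approximate.

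Keap1 (chromosome 9, 21229730 to 21239332), the adaptor that holds NRF2 for degradation, by probe set 1450746_at, had 7.11, 7.27 and 7.20 on DNCB+HY209 arrays, 6.73, 7.26 and 7.08 on DNCB arrays and 6.86 and 7.37 on sham arrays. The sham arrays spanned nearly the whole range of the other groups. The differences were -0.09 for DNCB minus sham (interval -0.67 to 0.49, adjusted p = 0.873), 0.17 for DNCB+HY209 minus DNCB (interval -0.35 to 0.69) and 0.08 for DNCB+HY209 minus sham (interval -0.50 to 0.66, adjusted p = 0.878). The last was -0.23 after quantile normalization and -0.13 after scaling to 1 trimmed mean. Without sham array 2 DNCB minus sham was 0.17, and without sham array 1 DNCB+HY209 minus sham was -0.18. The other Keap1 probe set, 1450747_at, lay below the filter, with 3.73, 3.79 and 3.56 on DNCB+HY209 arrays, 3.55, 3.91 and 3.37 on DNCB arrays and 3.29 and 3.31 on sham arrays. Its sham values were the lowest, so its sign in DNCB minus sham was opposite to that of the tested probe set, at signals under the array medians.

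Nqo1 and Hmox1 encode detoxifying enzymes often used as readouts of NRF2. NQO1 reduces quinones to hydroquinones, and HMOX1 breaks down haem to biliverdin, iron and carbon monoxide. Nqo1 (chromosome 8, 107388225 to 107403205), by 1423627_at, had 4.62, 5.31 and 5.45 on DNCB+HY209 arrays, 4.83, 5.57 and 5.21 on DNCB arrays and 4.82 and 4.52 on sham arrays. The lowest DNCB value, 4.83, was only just above the higher sham value, 4.82, so the groups barely missed overlapping. The DNCB minus sham difference was 0.53 (SE 0.30, interval -0.16 to 1.22, adjusted p = 0.409) and the DNCB+HY209 minus DNCB difference was -0.08 (interval -0.69 to 0.53), or 0.19 with array weights. The DNCB+HY209 minus sham difference was 0.45 (interval -0.24 to 1.14, adjusted p = 0.421). Under the spike-in covariate the 2 differences against sham were 0.04 and -0.06.

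Hmox1 (chromosome 8, 75093618 to 75100593) has 1 probe set, 1448239_at, which lay under the median of every array. Its signals were 3.69, 3.36 and 3.58 on DNCB+HY209 arrays, 3.36, 3.79 and 3.41 on DNCB arrays and 3.55 and 3.55 on sham arrays. The 3 groups overlapped, and at this signal a difference in Hmox1 was not measurable here. Macrophages, which can carry much Hmox1 in inflamed tissue, were present by their markers, whose list means were 5.48 to 6.31 with DNCB+HY209, 5.73 to 6.98 with DNCB and 5.45 to 5.72 in sham. Of 5 red blood cell markers, the 3 with a probe set of their own (Hba-a1, Alas2 and Slc4a1) lay below the filter. Their list means were 3.12 to 3.40, 3.01 to 3.38 and 3.15 to 3.24. Hbb-b1 and Hbb-bs had no such probe set and were not followed.

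**Figure D2:**
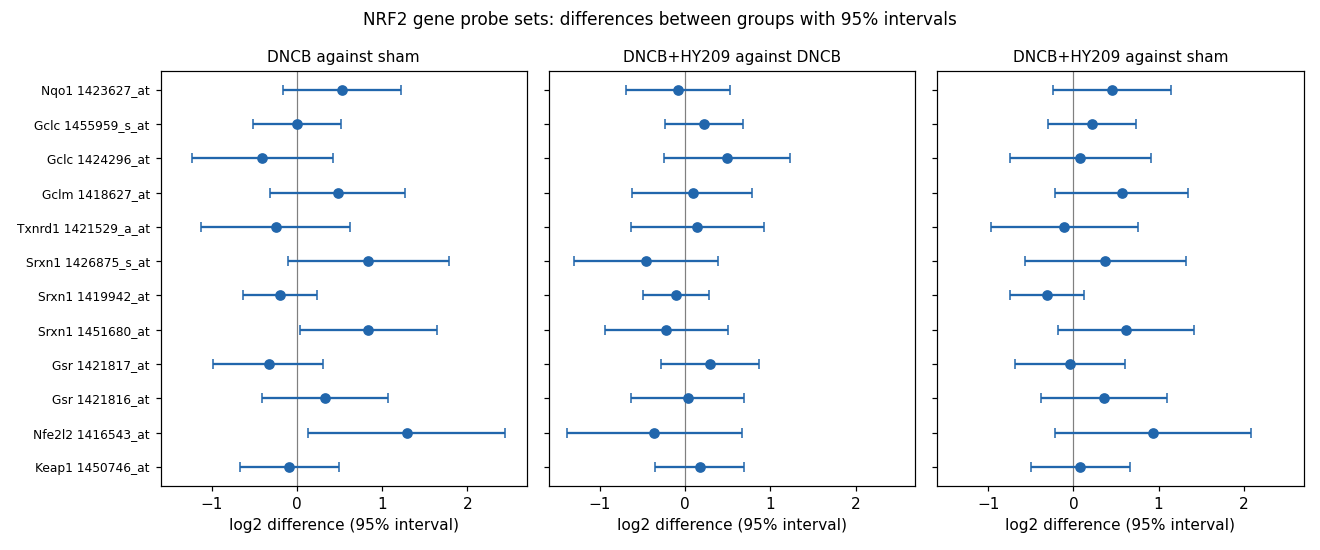
Log2 difference (horizontal axis) with its 95% interval for each of the 12 tested member probe sets, in 3 panels for the 3 comparisons. In DNCB against sham only the intervals of Nfe2l2 1416543_at (0.13 to 2.44) and Srxn1 1451680_at (0.04 to 1.64) lie above 0, and in the other 2 panels every interval holds 0.

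Glutathione genes were led by Gclc and Gclm, the catalytic and the modifier subunit of glutamate-cysteine ligase, which makes the first step of glutathione synthesis. Gclc (chromosome 9, 77754535 to 77794489) was measured by 2 probe sets. By 1455959_s_at it had 6.78, 6.58 and 6.57 on DNCB+HY209 arrays, 6.20, 6.50 and 6.57 on DNCB arrays and 6.61 and 6.24 on sham arrays. DNCB and sham values lay within the same span, and the difference of their means was 0 (interval -0.52 to 0.52). DNCB+HY209 was 0.22 above DNCB (interval -0.24 to 0.68) and 0.22 above sham (interval -0.30 to 0.74), without a call, and the last was -0.07 after quantile normalization.

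By 1424296_at Gclc had 6.60, 6.48 and 6.19 on DNCB+HY209 arrays, 5.19, 6.44 and 6.18 on DNCB arrays and 6.60 and 6.08 on sham arrays. DNCB array 1, at 5.19, was the lowest of all 8 by a wide margin. The differences were -0.41 for DNCB minus sham (interval -1.23 to 0.42, adjusted p = 0.571), 0.49 for DNCB+HY209 minus DNCB (interval -0.25 to 1.23) and 0.08 for DNCB+HY209 minus sham (interval -0.74 to 0.91). The last was -0.18 after quantile normalization and -0.13 after scaling to 1 trimmed mean. The DNCB+HY209 minus DNCB value was the largest positive one of the 12 members in that comparison, and it was not called. Without DNCB array 1 it was 0.12, and DNCB minus sham was -0.04.

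Gclm (chromosome 3, 122245487 to 122267215), by 1418627_at, had 6.69, 6.80 and 6.67 on DNCB+HY209 arrays, 6.01, 7.13 and 6.76 on DNCB arrays and 6.53 and 5.78 on sham arrays. The DNCB+HY209 arrays lay close together, with an SD of 0.07 against 0.57 in DNCB, and all 3 were above both sham arrays. The DNCB+HY209 minus sham difference was 0.57 (SE 0.35, interval -0.22 to 1.35, adjusted p = 0.384). DNCB minus sham was 0.48 (interval -0.31 to 1.27, adjusted p = 0.491) and DNCB+HY209 minus DNCB was 0.09 (interval -0.62 to 0.79), or -0.23 without DNCB array 1. Under the spike-in covariate DNCB minus sham was 0.06 and DNCB+HY209 minus sham 0.14. These values moved with the sham arrays: without sham array 2 they were 0.11 and 0.19, and without sham array 1 they were 0.85 and 0.94. The probe set 1439050_at of Gclm lay below the filter with values of 3.44 to 4.11.

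Slc7a11 (chromosome 3, 50364936 to 50499087), the light chain of the cystine importer that feeds glutathione synthesis, was below the filter by both of its probe sets. By 1420413_at it had 3.08, 2.87 and 2.58 on DNCB+HY209 arrays, 3.06, 2.90 and 2.96 on DNCB arrays and 3.04 and 2.79 on sham arrays, and by 1443536_at its values were 2.48 to 2.79. The groups overlapped by both.

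Gsr (chromosome 8, 33653238 to 33698162), which reduces oxidized glutathione with NADPH, had 6.13, 6.08 and 6.30 by 1421817_at on DNCB+HY209 arrays, 6.02, 6.30 and 5.33 on DNCB arrays and 6.19 and 6.24 on sham arrays. DNCB array 3 was the only low array, and it also had the largest Gapdh 3' to 5' difference (2.88). The differences were -0.33 for DNCB minus sham (interval -0.98 to 0.31, adjusted p = 0.555), 0.29 for DNCB+HY209 minus DNCB (interval -0.28 to 0.87) and -0.04 for DNCB+HY209 minus sham (interval -0.69 to 0.60), the last being 0.03 after centring on array medians. Without that array the first 2 were -0.06 and 0.01. With the Gapdh 3' to 5' difference as a covariate, DNCB minus sham was -0.34 and DNCB+HY209 minus DNCB was 0.12. The part of RNA quality in the low array was not tested.

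By its second probe set, 1421816_at, Gsr had 5.03, 4.73 and 4.96 on DNCB+HY209 arrays, 4.58, 5.54 and 4.50 on DNCB arrays and 4.84 and 4.25 on sham arrays. The groups overlapped, and the sign against sham was opposite to that of the first probe set, at 0.33 for DNCB minus sham (interval -0.41 to 1.07, adjusted p = 0.609). DNCB+HY209 minus DNCB was 0.03 and DNCB+HY209 minus sham was 0.36. The 2 probe sets of Gsr therefore disagree in direction in DNCB against sham, and neither was called.

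Thioredoxin pathway members were Txnrd1, the cytosolic thioredoxin reductase, and Srxn1, the sulfiredoxin that restores overoxidized peroxiredoxins. Txnrd1 (chromosome 10, 82833951 to 82897724), by 1421529_a_at, had 7.60, 6.94 and 7.09 on DNCB+HY209 arrays, 6.93, 7.29 and 6.98 on DNCB arrays and 7.98 and 6.65 on sham arrays. The sham arrays held both the highest and the lowest value of all 8. The differences were -0.25 for DNCB minus sham (interval -1.12 to 0.62, adjusted p = 0.749), 0.14 for DNCB+HY209 minus DNCB (interval -0.63 to 0.92) and -0.11 for DNCB+HY209 minus sham (interval -0.97 to 0.76). Without sham array 1 the 2 differences against sham were 0.42 and 0.56, and without sham array 2 they were -0.91 and -0.77. The probe sets 1424486_a_at (3.63 to 4.26) and 1424487_x_at (2.33 to 2.92) lay below the filter.

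Srxn1 (chromosome 2, 152105524 to 152111376) had 4 probe sets, and they did not behave alike. By 1451680_at it had 4.74, 4.65 and 5.13 on DNCB+HY209 arrays, 4.85, 5.82 and 4.50 on DNCB arrays and 4.09 and 4.35 on sham arrays. Every array with DNCB, with or without HY209, lay above both sham arrays. The signal of sham array 1 lay under its array median (4.18), and that of sham array 2 just above its own (4.22). Differences against sham are therefore approximate for this probe set. The DNCB minus sham difference was 0.84 (SE 0.36, interval 0.04 to 1.64, unadjusted p = 0.0424 and adjusted p = 0.315), and DNCB+HY209 minus sham was 0.62 (interval -0.18 to 1.42, adjusted p = 0.359). DNCB+HY209 minus DNCB was -0.22 (interval -0.94 to 0.50), or 0.16 without DNCB array 2. Without DNCB array 2 the DNCB minus sham difference was 0.46, and with the spike-in covariate it was 0.30.

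By 1426875_s_at Srxn1 had 5.73, 6.44 and 6.78 on DNCB+HY209 arrays, 6.78, 7.39 and 6.16 on DNCB arrays and 6.26 and 5.62 on sham arrays. DNCB and sham overlapped here by 1 array each, at 6.16 and 6.26. DNCB was 0.84 above sham (SE 0.42, interval -0.11 to 1.78, adjusted p = 0.362). That difference was 0.07 under the spike-in covariate, 0.53 without DNCB array 2, and 0.52 and 1.16 without sham arrays 2 and 1. DNCB+HY209 minus sham was 0.37 (interval -0.57 to 1.32, adjusted p = 0.619), and -0.41 under the spike-in covariate. The DNCB+HY209 minus DNCB difference, -0.46 (interval -1.31 to 0.38), was the lowest of the 12 members in that comparison, and it was -0.17 without DNCB+HY209 array 1 and -0.16 without DNCB array 2.

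The third tested Srxn1 probe set, 1419942_at, had 4.88, 4.53 and 4.61 on DNCB+HY209 arrays, 4.75, 4.74 and 4.87 on DNCB arrays and 4.86 and 5.11 on sham arrays. Its differences had the opposite sign against sham, at -0.20 for DNCB (interval -0.63 to 0.24, adjusted p = 0.602) and -0.31 for DNCB+HY209 (interval -0.75 to 0.12, adjusted p = 0.387). The fourth, 1425351_at, lay below the filter, with 2.62, 2.57 and 2.61 on DNCB+HY209 arrays, 2.72, 3.78 and 2.57 on DNCB arrays and 2.49 and 2.30 on sham arrays. DNCB array 2 was the highest array for 1451680_at, 1426875_s_at and 1425351_at.

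DNCB array 2 held the highest signal for 6 of the 12 tested members (28.4% of all probe sets tested had their highest signal there), and sham array 2 held the lowest for 6 of 12 (30.9% of all). These were also the arrays with the lowest (9.25) and the highest (11.62) spike-in signal. Differentiated keratinocyte markers averaged 11.11 on DNCB array 2 and 8.19, their lowest value of all 8 arrays, on sham array 2. DNCB+HY209 array 1 had the lowest signal of its group for 4 tested members (Nfe2l2, Nqo1, Keap1 and Srxn1 1426875_s_at) and the highest for 5 (both Gclc probe sets, Txnrd1, Srxn1 1419942_at and Gsr 1421816_at). On that array hyperproliferative keratinocyte markers were lowest (9.83) and hair follicle markers highest (8.09) among the 3 DNCB+HY209 arrays. Without it the DNCB+HY209 minus DNCB difference was 0.08 for Nfe2l2, 0.17 for Nqo1 and -0.17 for Srxn1 1426875_s_at, and the DNCB+HY209 minus sham difference of Nfe2l2 was 1.37 (adjusted p = 0.148). The part of tissue makeup in these values was not tested.

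**Figure D3:**
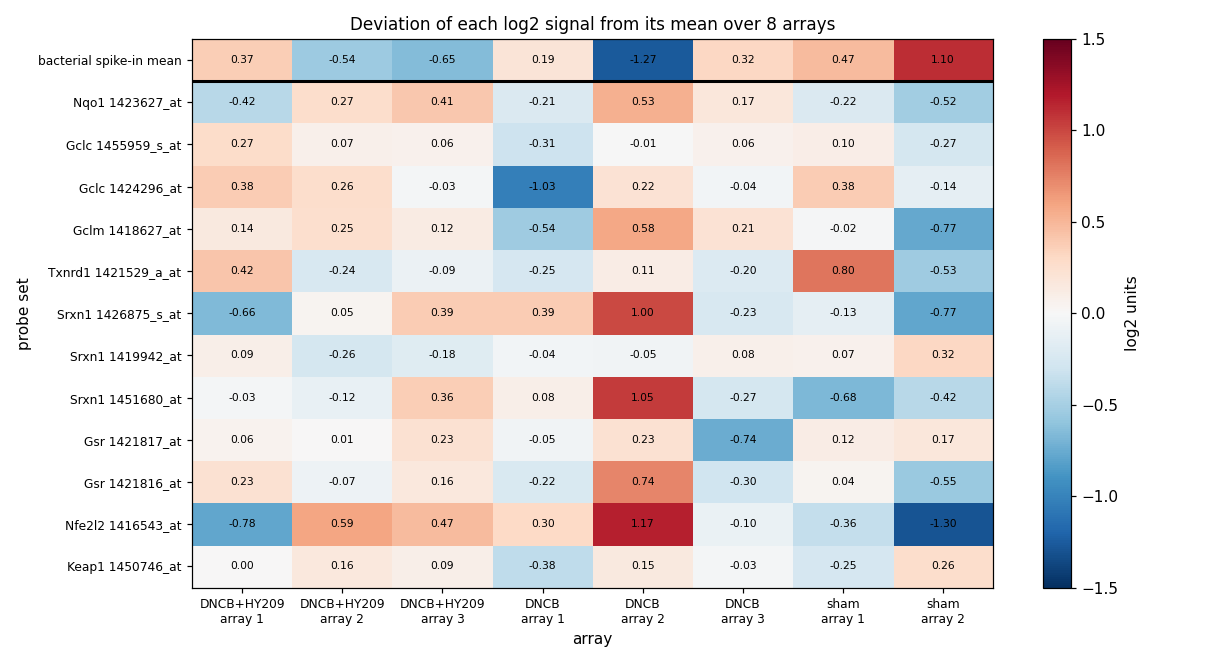
Deviation of each log2 signal from its mean over the 8 arrays (colour and printed value, in log2 units) for the bacterial spike-in mean and the 12 tested member probe sets (rows), by array (columns, with DNCB+HY209, DNCB and sham from left to right). DNCB array 2, with the lowest spike-in signal, is the highest array for 6 of 12 members, and sham array 2, with the highest, is the lowest for 6 of 12.

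Outside the 10 members, 81 genes of the same redox network were followed in 7 lists, each gene by its brightest probe set. Of 72 that were tested, 0 were called in any of the 3 comparisons (among all 12420 genes so represented, 1.26% were called for DNCB against sham, 0% for DNCB+HY209 against DNCB and 0.33% for DNCB+HY209 against sham). At an unadjusted p under 0.05, 15 were higher and 3 lower in DNCB than in sham, beside 12.1% and 4.29% of all genes. Between DNCB+HY209 and DNCB 0 were higher and 1 lower, beside 0.217% and 1.08%, and between DNCB+HY209 and sham 16 were higher and 3 lower, beside 14.0% and 4.99%. The medians were 0.26, 0.02 and 0.34, against 0.15, 0.03 and 0.20 for all genes.

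By list, the 18 other NRF2 target genes had the highest median of DNCB minus sham, 0.43. Akr1b8, an aldo-keto reductase, had 6.33, 7.63 and 7.41 on DNCB+HY209 arrays, 7.31, 8.15 and 6.77 on DNCB arrays and 5.19 and 4.93 on sham arrays. Every array with DNCB lay above both sham arrays. DNCB minus sham was 2.35 (SE 0.46, adjusted p = 0.0556), just short of the threshold, and DNCB+HY209 minus DNCB was -0.29. The call turned with the processing: it passed after quantile normalization (adjusted p = 0.0265) and after scaling to 1 trimmed mean (0.0315), and did not with the spike-in covariate (1.48, adjusted p = 0.156). In the same list Ephx1, the microsomal epoxide hydrolase, lay the other way, at -1.34 (SE 0.32, adjusted p = 0.108), and Pgd, an NADPH-forming enzyme of the pentose phosphate pathway, lay at 0.72 (SE 0.22, adjusted p = 0.186).

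The 8 glutathione peroxidases and glutaredoxins had a median of 0.20 in DNCB minus sham. Glrx, the cytosolic glutaredoxin, had 6.73, 7.92 and 8.50 on DNCB+HY209 arrays, 8.71, 8.87 and 7.40 on DNCB arrays and 5.82 and 5.66 on sham arrays, again without overlap between DNCB and sham. Its difference was 2.59 (SE 0.55, adjusted p = 0.0744; 0.0480 after quantile normalization), its second probe set gave 1.53, and the DNCB+HY209 minus DNCB difference was -0.61. Gpx7, a peroxidase of the endoplasmic reticulum, differed by 1.25 (SE 0.32, adjusted p = 0.126) and Gpx1, the main cytosolic glutathione peroxidase, by 0.85 (SE 0.48, adjusted p = 0.404). Both sham signals of Gpx7, 3.75 and 4.05, lay under their array medians. It thus passed the filter only by arrays with DNCB, and the size of its difference is approximate.

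Gpx3, the secreted glutathione peroxidase, was the 1 gene of the lists with an unadjusted p under 0.05 between DNCB+HY209 and DNCB, and is named after its values were seen. It had 7.80, 7.10 and 7.66 on DNCB+HY209 arrays, 9.31, 10.12 and 7.47 on DNCB arrays and 9.33 and 9.25 on sham arrays. DNCB array 3 lay among the DNCB+HY209 arrays, so these 2 groups overlapped, while all DNCB+HY209 arrays lay below both sham arrays. The difference was -1.44 (SE 0.56, unadjusted p = 0.0304, adjusted p = 0.9999), and it was -0.87 without DNCB array 2 and -2.19 without DNCB array 3. DNCB+HY209 minus sham was -1.77 (adjusted p = 0.219).

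The 13 regulators and partners of NRF2 had a median of 0.25 in DNCB minus sham. Bach1, a repressor that competes with NRF2 for its sites, had 7.91, 8.91 and 8.62 on DNCB+HY209 arrays, 8.22, 8.69 and 8.56 on DNCB arrays and 7.22 and 7.72 on sham arrays. All arrays with DNCB lay above both sham arrays, the DNCB minus sham difference was 1.03 (SE 0.33, adjusted p = 0.211), and its second probe set gave 0.19. The related factor Nfe2l1 differed by 0.62 (SE 0.30, adjusted p = 0.353) and Rbx1, the RING subunit of cullin ligases, by -0.49 (SE 0.26, adjusted p = 0.377).

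The 10 genes of glutathione synthesis, uptake and breakdown had a median of 0.27. Cbs, of the transsulfuration route to cysteine, lay at -0.84 (SE 0.25, adjusted p = 0.189), Ggct, a cyclotransferase of glutathione breakdown, at 2.08 (SE 0.66, adjusted p = 0.205) and the peptidase gene Anpep at 0.82 (SE 0.26, adjusted p = 0.208). For Ggct the sham arrays were far apart, at 8.30 and 6.41, and its probe sets ran from 0.45 to 2.08. The probe sets of Cbs ran from -0.84 to -0.41. The 11 thioredoxins and peroxiredoxins had a median of 0.12, with Txnip, which binds and inhibits thioredoxin, at -1.27 (SE 0.44, adjusted p = 0.236), Txnrd3 at 0.87 (SE 0.36, adjusted p = 0.310) and the mitochondrial peroxiredoxin Prdx3 at 0.55 (SE 0.32, adjusted p = 0.410). Among 3 superoxide dismutase genes, with a median of 0.32, mitochondrial Sod2 lay at 0.73 (SE 0.28, adjusted p = 0.283), the copper chaperone Ccs at 0.32 (SE 0.21) and cytosolic Sod1 at 0.07 (SE 0.24). The probe sets of Sod2 ran from -0.26 to 0.73, those of Txnip from -1.27 to -0.78 and those of Txnrd3 from 0.34 to 0.94. For Txnip the sham arrays were far apart, at 8.86 and 10.53, with the DNCB arrays at 8.17 to 8.76. The 9 genes of haem and bilirubin metabolism had a median of 0.28, with the haem synthesis gene Urod at 0.78 (SE 0.27, adjusted p = 0.232). Alas1, of the first step of that synthesis, lay at 1.05 (SE 0.38, adjusted p = 0.258) and the iron exporter gene Slc40a1 at -0.70 (SE 0.33, adjusted p = 0.343). The second probe set gave 0.46 for Urod and 0.43 for Alas1. For Slc40a1 the sham arrays lay at 7.19 and 6.10, and the DNCB arrays at 5.80 to 6.04.

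For DNCB+HY209 minus DNCB the list medians lay between -0.25, in the peroxidases and glutaredoxins, and 0.13, in glutathione synthesis, uptake and breakdown.

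**Figure D4:**
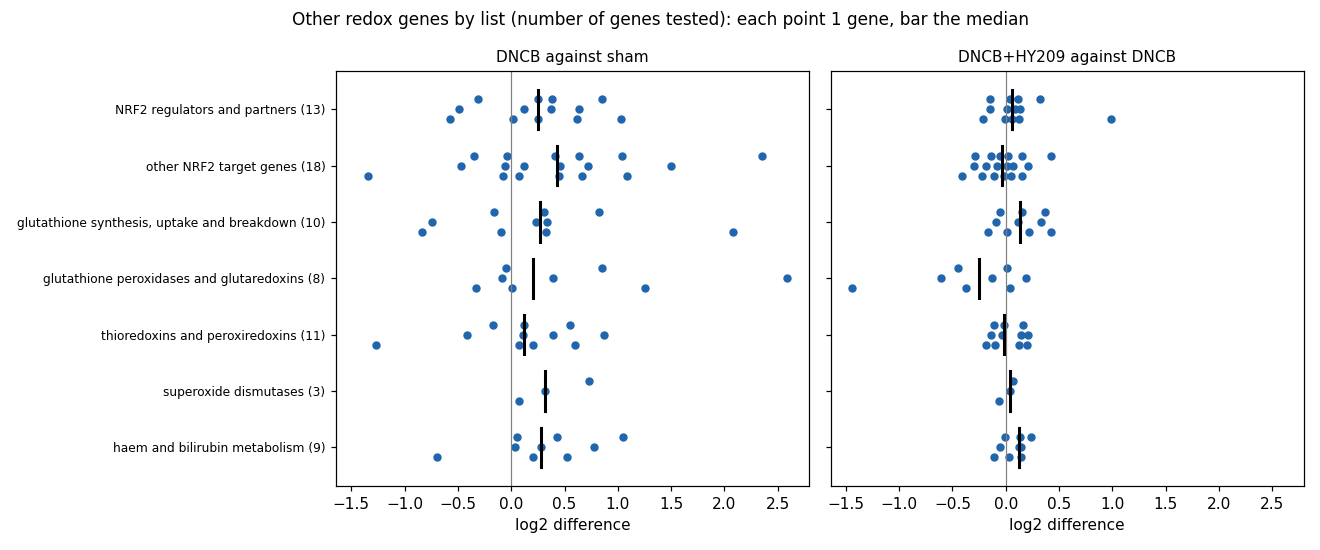
Log2 difference (horizontal axis) of each tested gene of the 7 redox lists (rows, with the number of genes), DNCB against sham on the left and DNCB+HY209 against DNCB on the right, with points for genes and black bars for list medians. Points reach 2.59 (Glrx) and 2.35 (Akr1b8) on the left, and on the right the lowest point is Gpx3 at -1.44.

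Profiles over the 8 arrays were compared for the 3 member probe sets with the widest range, by the root mean square difference between profiles centred on their own means. The candidates were the tested probe sets with 1 gene symbol, members left out. Closest to Nfe2l2 1416543_at were Glo1 (0.11 log2 units), Vcl (0.16) and Abcg2 (0.16), where the median of all candidates was 0.70. Closest to Srxn1 1426875_s_at were Cab39l (0.12), Yipf5 (0.13) and Adam9 (0.14), with a median of 0.54, and closest to Gclc 1424296_at were Wls (0.12), Mcm3 (0.13) and Ppp4r3b (0.14), with a median of 0.51. All points of a profile share the arrays and their technical differences, and likeness is given as a description.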

How the data were processed

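The authors deposited 1 log2 signal per probe set and array; that the scale is log2 follows from the range of values. Per the labels' protocols, RNA from frozen skin was amplified from the 3' end and labelled with biotin. Affymetrix Expression Console and MAS5 are named in the submitters' processing notes, with no order of steps, and normalization between arrays was not given in the sources used here. The labels name a 430A array, but the table holds 45101 probe sets. They comprised 64 controls, 34945 with 1 annotated symbol, 932 with more than 1 and 9160 absent from the annotation. Values were used as deposited. Probe sets above their array's median on at least 2 of 8 arrays were kept (24675). Differences were tested two-sided with limma 3.58.1 (R 4.3.3), using lmFit and trended eBayes in 1 fit of all 8 arrays, with Benjamini-Hochberg adjustment and a threshold of 0.05. The fit was also run on simulated data with independent noise in each probe set. No shifts of whole arrays were simulated, so differences between arrays such as those in spike-in level were not covered. SE is limma's moderated standard error, and all adjusted p-values of single genes are limma's. Only the spread between these samples, which may be technical, enters the p-values, and few arrays limit their precision.

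All probe sets of the 10 genes are named. In each redox list 3 genes are named, by unadjusted p in DNCB against sham, and Gpx3 was added after its values were seen. Likeness was taken for 3 members of widest range, 1 probe set a gene. Members and lists were chosen with earlier results of these data known. Arrays were not paired by replicate number in the main fit. Deviations of same-numbered arrays from their group means correlated with r of -0.62 to 0.24. With 2 or 3 arrays a group, these values cannot show whether same-numbered arrays were handled together. In total 21 alternatives were tried, 8 of them leaving out 1 array. Figures were drawn with Python 3.11.15 and matplotlib 3.10.9.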

Additional observations from a re-analysis of the deposited data

How the results depend on the processing

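No member was called in any of the 3 comparisons under any of the 21 alternatives. The lowest adjusted p of a member was 0.149 for DNCB against sham, 0.561 for DNCB+HY209 against DNCB and 0.0908 for DNCB+HY209 against sham. Each comparison gave 248 member values, of which 16, 15 and 19 changed sign. With the spike-in covariate the DNCB minus sham difference of Gsr 1421816_at turned to -0.15, and the DNCB+HY209 minus sham difference turned to -0.13 for that probe set, -0.06 for Nqo1, -0.08 for Nfe2l2, -0.41 for Srxn1 1426875_s_at, -0.22 for Gclc 1424296_at and -0.03 for Keap1 1450746_at. With array weights the DNCB+HY209 minus DNCB difference turned to 0.22 for Nfe2l2 and 0.19 for Nqo1. Without 1 array at a time the DNCB minus sham difference of Gsr 1421816_at ran from 0 (without DNCB array 2) to 0.62. Spike-in level and group cannot be fully told apart in the comparisons with sham. The cause of these changes was not tested. The median of all probe sets in DNCB against sham was 0.11 as deposited, -0.01 after quantile normalization, 0.17 after centring on array medians and -0.08 after scaling to 1 trimmed mean. In DNCB+HY209 against sham it was 0.15, 0, 0.22 and -0.06. The DNCB minus sham difference of Nfe2l2 1416543_at was 1.02, 1.34 and 1.10 under these 3 scalings, and 0.30 with the spike-in covariate. This probe set had the largest member difference in that comparison as deposited. Its place above those medians thus partly follows from the choice of probe set and is not a test of scaling.

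Counts over all probe sets were less stable. For DNCB against sham 236 were called. The count was 366 with quantile normalization, 142 with centring, 20 with the spike-in covariate and 519 with the Gapdh covariate. Without 1 array at a time it ran from 14 (without either sham array) to 432 (without DNCB+HY209 array 1), with 41 and 51 without DNCB arrays 1 and 2 and 62 without DNCB+HY209 array 2. For DNCB+HY209 against sham 66 were called. The count was 141 with quantile normalization, 32 with centring, 101 with trimmed mean scaling, 1125 with array weights, 24 in a fit of the 2 groups alone and 9 with the spike-in covariate. Without 1 array at a time it ran from 6 (without DNCB+HY209 array 2) to 354 (without DNCB+HY209 array 1), with 10 without either sham array, 27 and 30 without DNCB arrays 1 and 3 and 11 without DNCB+HY209 array 3. With the replicate number as a block 20 and 8 were called in the comparisons against sham and 0 members in each. Whether same-numbered arrays share more than a number is not known here. For DNCB+HY209 against DNCB limma called 0 under all alternatives, with 307 probe sets at an unadjusted p under 0.05 in the values as deposited.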
